A study of Homo sapiens with 8 samples.

Results

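Receptor tyrosine kinases carry growth factor signals across the plasma membrane, and 10 genes of this class that are studied in glioma were followed here in LN229, an established human glioblastoma cell line. The members were taken by gene symbol from the deposited table, and all 10 were found among its 58735 genes. They are 4 receptors of the ERBB family (EGFR, ERBB2, ERBB3 and ERBB4), the hepatocyte growth factor receptor MET, the TAM family receptors AXL and TYRO3, the platelet-derived growth factor receptors PDGFRA and PDGFRB, and the fibroblast growth factor receptor FGFR1. In 4 samples the cells had received bortezomib, an inhibitor of the proteasome, at 7.5 nM together with panobinostat, an inhibitor of histone deacetylases, at 15 nM for 48 h, a treatment called the combination here. The other 4 samples had received DMSO for the same time, although a sample label calls them untreated. The labels name the source of every sample as LN229 cells, while the text on RNA extraction speaks of brain tissue. No sample of either drug alone was analysed here, so the share of each drug in a change cannot be told apart. The samples of a group are not said to come from separate cultures, and p-values then cover nothing beyond the spread among them, possibly a technical one.

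A receptor tyrosine kinase binds its ligand outside the cell, pairs with another receptor and phosphorylates tyrosines on its partner. These marks recruit adaptors that switch on the RAS-ERK, PI3K-AKT and other pathways. Active receptors are taken up, tagged with ubiquitin by ligases such as CBL, and sorted to lysosomes. EGFR and PDGFRA are often amplified in glioblastoma tumours, MET and AXL have been tied to invasion and to a mesenchymal state, and ERBB3 and PDGFRA are features of glial progenitors.

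After the combination, the receptor transcripts did not all move the same way. MET was higher (58.4 FPKM, against 12.7 in DMSO), and ERBB3, ERBB2 and AXL were lower (5.38, 2.11 and 27.7 FPKM, against 47.7, 15.2 and 88.6 FPKM in DMSO). EGFR and FGFR1 averaged 0.919 and 0.899 times their DMSO levels. MET and AXL transcripts led the receptors after the combination, and AXL and ERBB3 led them in DMSO. Levels are FPKM, reads scaled by the authors to gene length and to a total per library. That total was 0.954 to 1.003 times the reads in genes in combination libraries and 1.026 to 1.041 times in DMSO libraries, so scaling to the reads in genes lowers the combination relative to DMSO. Since the length used is that of all exons of a gene merged, levels of genes with many alternative exons are understated. Fold changes are differences of log2(FPKM + 1), combination minus DMSO, which understate the change of low genes, and the adjusted p is that of limma after Benjamini-Hochberg correction across 13296 genes, called at under 0.05.

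The ERBB family pairs receptors of unequal enzymatic strength, which is visible in the catalytic loop of the kinase. These 24 coding bases are shown because ERBB3 and ERBB2 fell while EGFR was not called, and capitals mark the codon for the catalytic aspartate of an active kinase. The stretches are from GENCODE 29 transcripts on GRCh38 and lie in exon 21 of each gene, at chr7:55191752-55191775 for EGFR, chr17:39725082-39725105 for ERBB2 and chr12:56097818-56097841 for ERBB3, all on the plus strand.
EGFR: caccgcGACctggcagccaggaac
ERBB2: cacaggGACttggccgctcggaac
ERBB3: catagaAACctggctgcccgaaac
Counted from 1 at the 5′ end of the stretch with the EGFR base first, ERBB3 differs from EGFR at 7 bases, and G7A turns the marked codon into that of asparagine. ERBB2 differs at 6 bases and keeps the marked codon. ERBB3 is known as a nearly inactive kinase that signals mainly through its partners, ERBB2 above all.

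The start regions of MET, AXL and EGFR are shown because these genes were higher, lower and not called. Each sequence is the 250 bases before a RefSeq transcript start on GRCh38.p14, read from the plus strand, with GC boxes (GGGCGG on either strand, bound by SP1-type factors) in capitals. They lie at chr7:116671946-116672195 for MET, chr19:41218973-41219222 for AXL and chr7:55018767-55019016 for EGFR. The MET and EGFR windows end upstream of the gene start in the deposited table, and the AXL window does not. Bases just after the start shown were found in a GENCODE 29 transcript of the gene for AXL and EGFR, but not for MET.
MET: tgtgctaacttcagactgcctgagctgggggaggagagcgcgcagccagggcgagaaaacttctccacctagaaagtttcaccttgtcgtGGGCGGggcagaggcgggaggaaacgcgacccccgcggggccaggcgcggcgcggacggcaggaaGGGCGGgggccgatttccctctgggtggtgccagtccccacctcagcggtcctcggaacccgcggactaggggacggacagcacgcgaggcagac
AXL: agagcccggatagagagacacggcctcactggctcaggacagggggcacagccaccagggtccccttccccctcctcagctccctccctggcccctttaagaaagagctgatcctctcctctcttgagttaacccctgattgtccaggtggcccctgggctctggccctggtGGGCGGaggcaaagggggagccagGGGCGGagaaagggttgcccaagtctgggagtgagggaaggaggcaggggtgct
EGFR: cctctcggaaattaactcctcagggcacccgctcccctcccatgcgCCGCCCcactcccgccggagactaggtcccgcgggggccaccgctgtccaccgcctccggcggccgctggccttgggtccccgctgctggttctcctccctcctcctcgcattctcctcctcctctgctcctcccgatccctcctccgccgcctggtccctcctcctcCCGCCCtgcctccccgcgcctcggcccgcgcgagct
Each of the 3 windows held 2 GC boxes, a motif present in 42.6% of 35116 RefSeq start windows of the same length. The AP-1 motif (TGANTCA) occurred in none of the 3 and in 6.57% of all windows, CCAAT in none of the 3 and in 32.0% of all. The AP-2 motif (GCCNNNGGC) had 1 match in AXL, where it overlaps a GC box, 2 in EGFR and 0 in MET, against 19.8% of all windows. MET had 24 and EGFR 25 CG dinucleotides, AXL had 4, and the median window had 11. AXL and EGFR each have a second, downstream RefSeq start in the same table, and the upstream one is shown. The downstream windows held 0 GC boxes, the EGFR one had 2 AP-1 motifs and 1 CG dinucleotide, and the AXL one had 13 CG dinucleotides. In windows of other members, CG dinucleotides numbered 23 in ERBB2 and 39 and 8 in TYRO3 (both genes lower), and 9 in PDGFRB (higher). PDGFRA had 8 and 25, and ERBB4 had 14. GC boxes numbered 0 in ERBB2, 3 and 0 in TYRO3, 1 in PDGFRB, 0 and 2 in PDGFRA and 1 in ERBB4. The AP-1 motif had 1 match each in ERBB2, the upstream TYRO3 window and the upstream PDGFRA window. CCAAT had 1 match each in ERBB2, PDGFRB and the downstream PDGFRA window. The AP-2 motif had 1 match in the upstream TYRO3 window and none in the other windows of these members. These letters are a description of the windows, and binding was not measured.

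**Figure D1:**
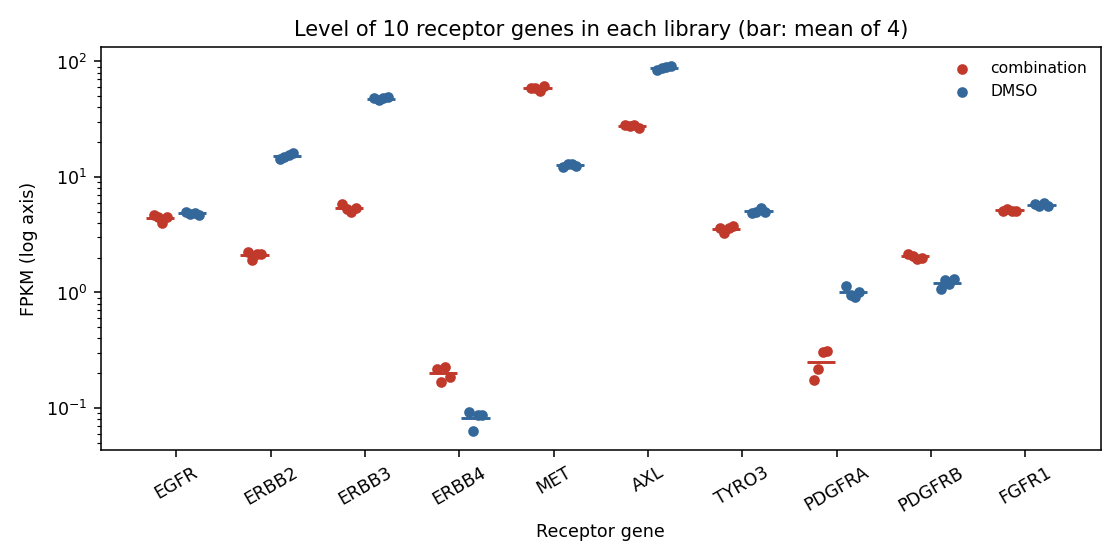
FPKM of each of the 10 receptor genes (log axis) in the 4 combination libraries (red) and the 4 DMSO libraries (blue), each point a library and each bar a mean. MET stood at 55.3 to 61.0 FPKM after the combination against 12.3 to 13.0 FPKM in DMSO, ERBB3 at 4.98 to 5.88 FPKM after the combination against 46.0 to 48.9 FPKM in DMSO, and the EGFR points of both groups overlap between 4 and 5 FPKM.

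Of the 10 receptors, 8 passed the filter, a mean over all libraries of 1 FPKM or more, and each of the 8 averaged above 1 FPKM in both groups. Of these 8, MET and PDGFRB were called higher (2 of 8), where 36.9% of all genes tested were higher. ERBB2, ERBB3, AXL, TYRO3 and FGFR1 were called lower (5 of 8), where 41.0% of all genes were lower. Groups did not overlap for 7 of the 8, against 72.7% of all genes tested. With 8 genes, no difference from the whole transcriptome is read from these counts.

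MET, on chromosome 7 (116672390 to 116798386, GRCh38, plus strand), encodes the receptor for hepatocyte growth factor, a driver of motility and invasive growth. Its level was 58.6, 58.8, 55.3 and 61.0 FPKM in combination libraries, against 12.3, 13.0, 12.9 and 12.4 FPKM in DMSO libraries. Every combination library thus lay more than 4-fold above the DMSO libraries, and the spread within a group was small. The mean was 58.4 ± 2.34 FPKM after the combination and 12.7 ± 0.352 FPKM in DMSO (SD, n = 4 each), a ratio of 4.62. The log2 fold change was 2.12 ± 0.0364 (SE), with an adjusted p from limma of 9.62e-11, and only 1.65% of the genes tested had a higher one. Behind these levels stood 6061 to 7073 reads per combination library and 1377 to 1519 per DMSO library. None of the exon length of MET lies under exons of other genes.

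ERBB3, on chromosome 12 (56076799 to 56103505, plus strand), binds neuregulins and passes their signal to PI3K once it is phosphorylated by a partner. It was measured at 5.88, 5.29, 4.98 and 5.39 FPKM after the combination and at 48.2, 46.0, 47.9 and 48.9 FPKM in DMSO. All combination libraries were therefore far below all DMSO libraries. The mean was 5.38 ± 0.374 FPKM after the combination, 0.113 times the 47.7 ± 1.25 FPKM of DMSO. ERBB3 had a log2 fold change of -2.93 ± 0.0449 (SE, limma adjusted p = 5.29e-11), and 0.970% of the genes tested had a lower one.

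ERBB2, on chromosome 17 (39687914 to 39730426, plus strand), has no known ligand of its own and is the preferred partner of the other ERBB receptors. Libraries of the combination held 2.24, 1.90, 2.16 and 2.16 FPKM, and those of DMSO 14.2, 14.8, 15.6 and 16.0 FPKM, without overlap. The mean was 2.11 ± 0.145 FPKM after the combination and 15.2 ± 0.828 FPKM in DMSO, a log2 fold change of -2.37 ± 0.0511 (SE, limma adjusted p = 2.72e-10). Among the genes tested 1.87% had a lower value. In 7.41% of its exon length ERBB2 lies under exons of PGAP3 and MIEN1 on the opposite strand, and no source used here says whether counting took strand into account.

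EGFR, on chromosome 7 (55019021 to 55211628, plus strand), is the receptor of EGF and TGF-alpha. It stood at 4.72, 4.49, 4.02 and 4.52 FPKM after the combination, against 4.98, 4.78, 4.88 and 4.67 FPKM in DMSO. The groups overlapped, with combination library 1 above DMSO library 4. EGFR averaged 4.44 ± 0.298 FPKM after the combination and 4.83 ± 0.136 FPKM in DMSO, with a log2 fold change of -0.10, a 95% interval of -0.21 to 0.01 and a limma adjusted p of 0.0816. The call depended on the settings. EGFR passed as lower with scaling to the reads in genes (adjusted p = 0.0270), with voom of limma on recovered reads (0.00381) and without combination library 1 (adjusted p = 0.0484), and its sign turned with quantile normalization (log2 fold change 0.02, adjusted p = 0.743).

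ERBB4, a further neuregulin receptor on chromosome 2 (211375717 to 212538841, minus strand), lay below the filter. It had 0.217, 0.166, 0.227 and 0.187 FPKM after the combination and 0.0928, 0.0626, 0.0874 and 0.0876 FPKM in DMSO, from 37 to 46 reads per combination library and 13 to 21 per DMSO library. The combination values were all above the DMSO values, and 3 reads, the floor used here, correspond to 0.0133 to 0.0151 FPKM for this gene (counting error only). The exact permutation test, two-sided, gave p = 0.0286, the smallest that 4 against 4 samples allow. With no filter on low values its log2 fold change was 0.15 (limma adjusted p = 0.00982). More genes of any kind had a read after the combination (27742 to 29035 per library) than in DMSO (25046 to 25719).

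**Figure D2:**
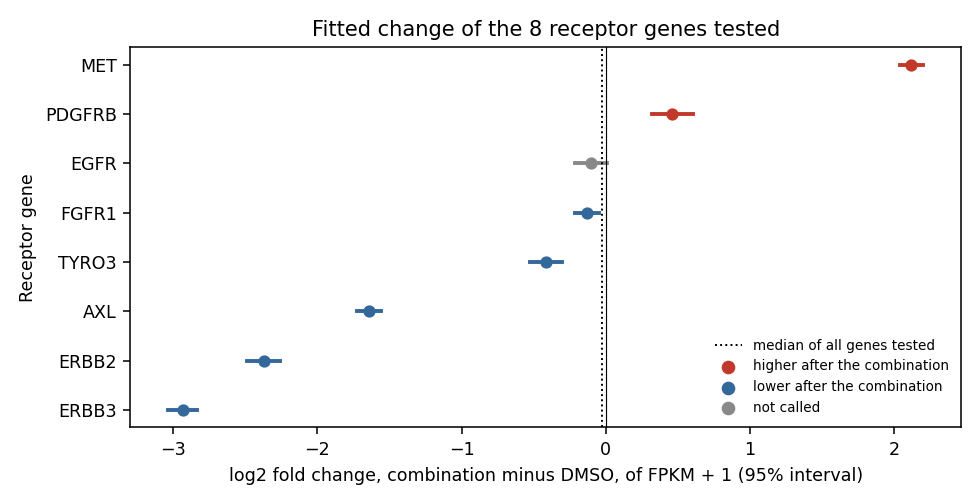
Fitted log2 fold change (combination minus DMSO, of FPKM + 1) with its 95% interval for the 8 receptor genes tested, and the median of all genes tested as a dotted line. Values run down the page from MET at 2.12 to ERBB3 at -2.93, and the interval of EGFR includes 0.

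AXL, on chromosome 19 (41219203 to 41261766, plus strand), binds GAS6 and is a marker of mesenchymal and drug-tolerant tumour cells. It stood at 28.4, 27.4, 28.1 and 26.7 FPKM after the combination, against 83.8, 88.4, 90.4 and 92.0 FPKM in DMSO, where it was the most abundant of the 10 receptors. The highest combination library was far below the lowest DMSO library. AXL averaged 27.7 ± 0.748 FPKM after the combination and 88.6 ± 3.56 FPKM in DMSO, a ratio of 0.312 and a log2 fold change of -1.64 ± 0.0362 (SE, limma adjusted p = 3.18e-10). TYRO3, on chromosome 15 (41557675 to 41583586, plus strand), is a related receptor that binds protein S as well as GAS6. Its values were 3.59, 3.28, 3.64 and 3.74 FPKM after the combination and 4.89, 5.00, 5.42 and 5.01 FPKM in DMSO, again without overlap. The log2 fold change of TYRO3 was -0.41 ± 0.0480 (SE, limma adjusted p = 3.08e-05), a smaller decrease than that of AXL.

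PDGFRA, on chromosome 4 (54229097 to 54298247, plus strand), is the receptor of oligodendrocyte progenitors and of the proneural glioma class. It had 0.175, 0.216, 0.303 and 0.314 FPKM after the combination, against 1.14, 0.953, 0.917 and 1.01 FPKM in DMSO, so that it missed the filter with a mean of 0.628 FPKM. The groups did not overlap, and the mean after the combination was 0.251 times that in DMSO (exact permutation test, two-sided p = 0.0286, n = 4 each). With no filter the log2 fold change was -0.68 (limma adjusted p = 0.000204). Reads of PDGFRA are less certain, since 15.8% of its exon length is shared with AC058822.1 on the same strand.

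PDGFRB, on chromosome 5 (150113837 to 150155872, minus strand), marks pericytes and mesenchymal cells in tissue. It was measured at 2.17, 2.09, 1.95 and 1.99 FPKM after the combination and at 1.07, 1.29, 1.18 and 1.31 FPKM in DMSO, with all combination libraries higher. The log2 fold change was 0.46 ± 0.0631 (SE, limma adjusted p = 9.89e-05), and the ratio of means was 1.69.

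FGFR1, on chromosome 8 (38400215 to 38468834, minus strand), binds FGF2 among other ligands. It had 5.11, 5.29, 5.05 and 5.12 FPKM after the combination against 5.82, 5.55, 5.95 and 5.58 FPKM in DMSO. These groups lie close together without overlap, with a log2 fold change of -0.13 ± 0.0364 (SE, limma adjusted p = 0.00883). The call of FGFR1 was lost with upper-quartile factors (adjusted p = 0.239), quantile normalization (0.790) and scaling by nuclear reads (0.0884).

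Whether members changed by different amounts was tested within libraries, where scaling cancels apart from the pseudocount. The 6 pairs were formed from members chosen with earlier results of these data known. For these pairs the log2 ratios of both groups were set against each other by exact permutation, two-sided, with p adjusted over the 6. The log2 ratio of MET to EGFR was 3.45 ± 0.0508 after the combination and 1.23 ± 0.0520 in DMSO (adjusted p = 0.0343). That of ERBB3 to EGFR was 0.23 ± 0.0339 after the combination and 3.06 ± 0.0509 in DMSO, with the same adjusted p. That of ERBB2 to EGFR was -0.80 ± 0.103 after the combination and 1.47 ± 0.102 in DMSO, with the same adjusted p. TYRO3 relative to AXL stood at -2.65 ± 0.0779 after the combination and -3.88 ± 0.0539 in DMSO, and PDGFRB relative to PDGFRA at 1.28 ± 0.124 after the combination and 0.14 ± 0.128 in DMSO, again with adjusted p = 0.0343. Sizes depended on the pseudocount. With 0.1 and 5 in place of 1, the difference for PDGFRB relative to PDGFRA was 2.38 and 0.37 in place of 1.14, and with 5 that for ERBB2 relative to EGFR was -1.44 in place of -2.27. In these 5 pairs each combination library lay on the same side of every DMSO library. Among single genes tested 72.7% had groups without overlap, and the share among all gene pairs was not worked out. FGFR1 relative to EGFR stood at 0.18 ± 0.0740 after the combination and 0.21 ± 0.0268 in DMSO, a difference of -0.03 within the spread between libraries (adjusted p = 0.514). The raw p was 0.0286 in the 5 pairs, the smallest that this design allows.

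Added up, the 10 receptors reached 109 ± 2.57 FPKM after the combination and 182 ± 4.87 FPKM in DMSO. MET took 53.5% ± 1.17 of this sum after the combination and 6.95% ± 0.246 in DMSO. After the combination AXL took 25.3% ± 1.04, ERBB3 4.93% ± 0.253 and ERBB2 1.94% ± 0.133, and in DMSO AXL took 48.7% ± 0.807, ERBB3 26.2% ± 0.759 and ERBB2 8.32% ± 0.235. EGFR made up 4.06% ± 0.188 after the combination and 2.65% ± 0.134 in DMSO, a larger share of a smaller sum. In order of level after the combination stood MET, AXL, ERBB3, FGFR1, EGFR, TYRO3, ERBB2, PDGFRB, PDGFRA and ERBB4, with overlapping ranges between ERBB3 and FGFR1, between ERBB2 and PDGFRB, and between PDGFRA and ERBB4. In DMSO the order was AXL, ERBB3, ERBB2, MET, FGFR1, TYRO3, EGFR, PDGFRB, PDGFRA and ERBB4, with overlap between TYRO3 and EGFR and between PDGFRB and PDGFRA. Libraries pool many cells, so fewer cells with a transcript and less of it per cell cannot be told apart.

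**Figure D3:**
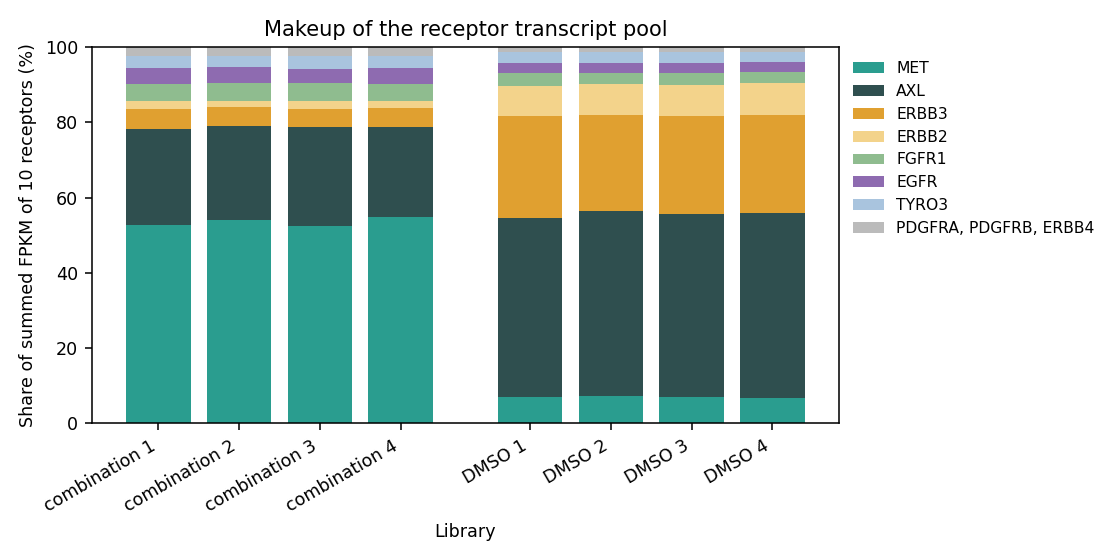
Share of the summed FPKM of the 10 receptors (%) taken by each receptor, with the 4 combination libraries left of the 4 DMSO libraries. MET takes 52.3% to 54.9% in combination libraries and 6.63% to 7.22% in DMSO libraries.

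Transcripts of the ligands moved in both directions (values are means ± SD of 4 libraries here and for the lists that follow). Of 36 ligand genes 11 passed the filter, of which 6 were higher and 4 lower, and 4 of the 36 had no read in any library. The median log2 fold change of the 11 was 0.14, against -0.03 over all genes tested, of which 36.9% were higher and 41.0% lower. Without a filter 13 were higher and 6 lower of 32, and with a filter of 5 FPKM 4 were higher and 2 lower of 7. Of the 4 lower genes, FGF12 and FGF13 averaged above 1 FPKM in DMSO alone, and such a gene could pass the filter only by differing. For EGFR, whose transcript was not called, TGFA stood at 20.4 ± 0.816 FPKM after the combination against 130.2 ± 4.25 FPKM in DMSO (log2 fold change -2.61, limma adjusted p = 4.12e-11) and HBEGF at 23.4 ± 1.39 FPKM after the combination against 3.67 ± 0.232 FPKM in DMSO (2.39, adjusted p = 2.96e-10). For ERBB3, which was lower, the neuregulin NRG1 was higher (combination 2.53 ± 0.170, DMSO 1.15 ± 0.0819 FPKM), as was NRG2 (combination 3.79 ± 0.188, DMSO 2.75 ± 0.363 FPKM). HGF, the ligand of MET, stayed below the filter at 0.0679 ± 0.0334 FPKM after the combination and 0.0363 ± 0.0323 FPKM in DMSO, with overlapping groups.

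GAS6, the shared ligand of AXL and TYRO3, was higher at 8.04 ± 0.403 FPKM after the combination against 2.77 ± 0.212 FPKM in DMSO (log2 fold change 1.26, limma adjusted p = 2.33e-08). PROS1, which encodes protein S, stood at 5.84 ± 0.231 FPKM after the combination against 5.22 ± 0.261 FPKM in DMSO with overlapping groups and was called higher (adjusted p = 0.0162). Of the platelet-derived growth factors, PDGFA was lower (combination 7.63 ± 0.666, DMSO 29.8 ± 1.02 FPKM) and PDGFC higher (combination 12.7 ± 0.852, DMSO 4.94 ± 0.430 FPKM), and both bind PDGFRA. FGF2 stood at 6.83 ± 0.498 FPKM after the combination against 7.31 ± 0.321 FPKM in DMSO (adjusted p = 0.155). FGF12, an intracellular member of the FGF family that does not act as a classical ligand, was lower at 0.690 ± 0.0891 FPKM after the combination against 3.14 ± 0.239 FPKM in DMSO.

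**Figure D4:**
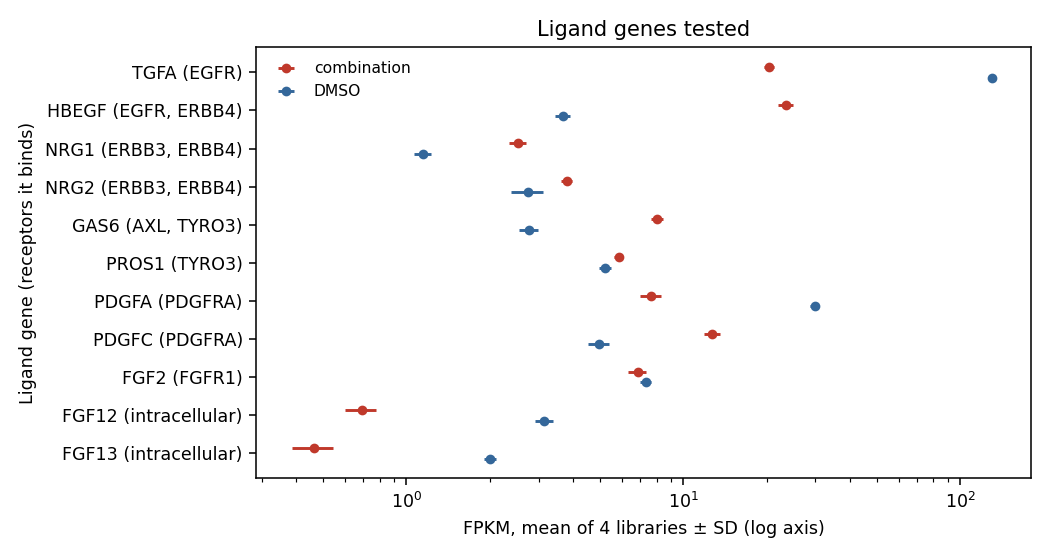
Mean FPKM ± SD over 4 libraries (log axis) of the 11 ligand genes tested, in combination libraries (red, upper point of each pair) and DMSO libraries (blue), with the receptors each binds. TGFA and PDGFA were lower and HBEGF, GAS6 and PDGFC higher after the combination.

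Among 48 other receptor tyrosine kinase genes 18 could be tested, and 5 were higher, 11 lower and 2 not called (median log2 fold change -0.67). The shares among all genes tested were 36.9% higher and 41.0% lower. The 4th FGF receptor gene, FGFR4, was higher at 20.4 ± 1.11 FPKM after the combination against 6.06 ± 0.326 FPKM in DMSO (limma adjusted p = 2.25e-09). So were the ephrin receptor EPHB2 (combination 4.36 ± 0.173, DMSO 1.86 ± 0.0598 FPKM) and the endosomal kinase LMTK2 (combination 10.7 ± 0.377, DMSO 6.14 ± 0.231 FPKM). EPHB3 was lower at 3.11 ± 0.157 FPKM after the combination against 20.6 ± 0.337 FPKM in DMSO, the VEGF receptor FLT1 at 0.668 ± 0.0239 FPKM after the combination against 7.85 ± 0.400 FPKM in DMSO, and EPHA3 at 3.35 ± 0.103 FPKM after the combination against 10.5 ± 0.244 FPKM in DMSO. In 4 of the 18 (FLT1, AATK, LMTK3 and ROR1), the higher group alone averaged above 1 FPKM, so that they passed the filter through it. The balance depended on the filter, with 19 higher and 11 lower of 48 when none was used, and 2 higher and 7 lower of 11 at 5 FPKM.

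Of 18 tested co-receptors and surface proteases 12 were lower and 3 higher (median log2 fold change -0.57), where 41.0% of all genes tested were lower and 36.9% higher. SDC4, a heparan sulphate proteoglycan that presents growth factors, was higher at 288 ± 4.90 FPKM after the combination against 68.6 ± 1.68 FPKM in DMSO (limma adjusted p = 4.20e-11). ADAM15 and RHBDF2, a metalloprotease and a partner of the sheddase ADAM17, were the other two. FGFRL1, a decoy relative of the FGF receptors without a kinase, was lower at 21.4 ± 0.961 FPKM after the combination against 84.8 ± 2.52 FPKM in DMSO, SDC3 at 46.3 ± 1.39 FPKM after the combination against 111 ± 3.92 FPKM in DMSO and SDC2 at 16.4 ± 0.467 FPKM after the combination against 33.7 ± 0.737 FPKM in DMSO. With upper-quartile factors or scaling by nuclear reads 5 in place of 3 were higher.

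Directly downstream, 28 of 46 tested genes of adaptors and kinases were lower and 9 higher (median log2 fold change -0.26). Across all genes tested 41.0% were lower and 36.9% higher. HRAS stood at 17.5 ± 0.306 FPKM after the combination against 28.7 ± 0.482 FPKM in DMSO, AKT1 at 6.43 ± 0.286 FPKM after the combination against 15.2 ± 0.952 FPKM in DMSO and SRC at 3.44 ± 0.217 FPKM after the combination against 10.2 ± 1.04 FPKM in DMSO, all lower. PIK3CD, a catalytic PI3K subunit, was higher at 12.7 ± 0.346 FPKM after the combination against 3.70 ± 0.407 FPKM in DMSO, the ERK activator MAP2K1 at 21.7 ± 0.679 FPKM after the combination against 11.7 ± 0.504 FPKM in DMSO, and the receptor-binding adaptor GRB14 at 3.34 ± 0.621 FPKM after the combination against 0.219 ± 0.0971 FPKM in DMSO. GRB14 averaged below 1 FPKM in DMSO and passed the filter through the combination libraries. It is 1 of 3 among the 46 with 1 group alone at 1 FPKM or more, and such genes could pass only by differing.

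Of 32 tested negative regulators, 11 were higher and 16 lower (median log2 fold change -0.15). Across all genes tested 36.9% were higher and 41.0% lower. In 2 of the 32, 1 group alone averaged 1 FPKM or more, so that they passed the filter through it. DUSP5, a nuclear ERK phosphatase, was higher at 45.9 ± 2.15 FPKM after the combination against 5.29 ± 0.0394 FPKM in DMSO (log2 fold change 2.90, limma adjusted p = 2.65e-11). SOCS3 was higher at 89.0 ± 7.36 FPKM after the combination against 26.5 ± 1.62 FPKM in DMSO and the receptor phosphatase PTPRK at 9.99 ± 0.376 FPKM after the combination against 4.0 ± 0.137 FPKM in DMSO. The feedback inhibitors SPRY4 (combination 6.87 ± 0.249, DMSO 32.7 ± 2.11 FPKM) and SPRY2 (combination 30.5 ± 0.83, DMSO 77.8 ± 1.11 FPKM) were lower, as was the phosphatase PTPRJ (combination 2.86 ± 0.159, DMSO 9.78 ± 0.277 FPKM).

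Transcripts commonly read as output of ERK signalling, a list that also holds SPRY2 and SPRY4, numbered 22 tested. Lower were 14 and higher 3 (median log2 fold change -0.46), where 41.0% of all genes tested were lower and 36.9% higher. KCNN4, a potassium channel gene, was lower at 21.8 ± 0.313 FPKM after the combination against 89.0 ± 3.15 FPKM in DMSO (limma adjusted p = 6.74e-11). The 3 higher ones were MYC (combination 81.3 ± 3.78, DMSO 10.6 ± 0.890 FPKM), IER3 (combination 346 ± 18.5, DMSO 106 ± 6.09 FPKM) and IER2 (combination 70.4 ± 6.90, DMSO 36.0 ± 4.51 FPKM). The list does not hold DUSP5, which was higher as given above. ERK phosphorylation itself was not measured.

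Of 29 genes for receptor uptake and degradation, 15 were higher and 8 lower (median log2 fold change 0.13). For this list and the next, the shares among all genes tested were 36.9% higher and 41.0% lower. NEDD4L, a ubiquitin ligase, was higher at 22.9 ± 1.09 FPKM after the combination against 5.48 ± 0.189 FPKM in DMSO (limma adjusted p = 3.03e-10), the clathrin heavy chain CLTC at 77.0 ± 3.04 FPKM after the combination against 48.0 ± 1.89 FPKM in DMSO and PDCD6IP, the ESCRT factor ALIX, at 24.4 ± 0.406 FPKM after the combination against 18.0 ± 0.350 FPKM in DMSO. Lower were SH3KBP1, a CBL partner (combination 16.0 ± 0.619, DMSO 39.6 ± 1.39 FPKM), the ligase NEDD4 (combination 4.65 ± 0.171, DMSO 6.72 ± 0.198 FPKM) and CBL itself (combination 3.21 ± 0.191, DMSO 4.86 ± 0.259 FPKM). With quantile normalization 5 in place of 8 were lower. With scaling to the reads in genes, and with voom, 11 were lower and 14 higher. Of 8 chaperones of kinase clients 2 were higher and 5 lower (median log2 fold change -0.39). The kinase-specific HSP90 partner CDC37 stood at 95.5 ± 2.38 FPKM after the combination against 58.9 ± 2.08 FPKM in DMSO and HSP90AB1 at 511 ± 12.8 FPKM after the combination against 428 ± 9.34 FPKM in DMSO, both higher. HSP90AA1 (combination 154 ± 5.23, DMSO 321 ± 9.29 FPKM), HSP90B1 (combination 321 ± 9.09, DMSO 526 ± 18.8 FPKM) and PPP5C (combination 8.24 ± 0.333, DMSO 11.5 ± 0.496 FPKM) were lower.

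**Figure D5:**
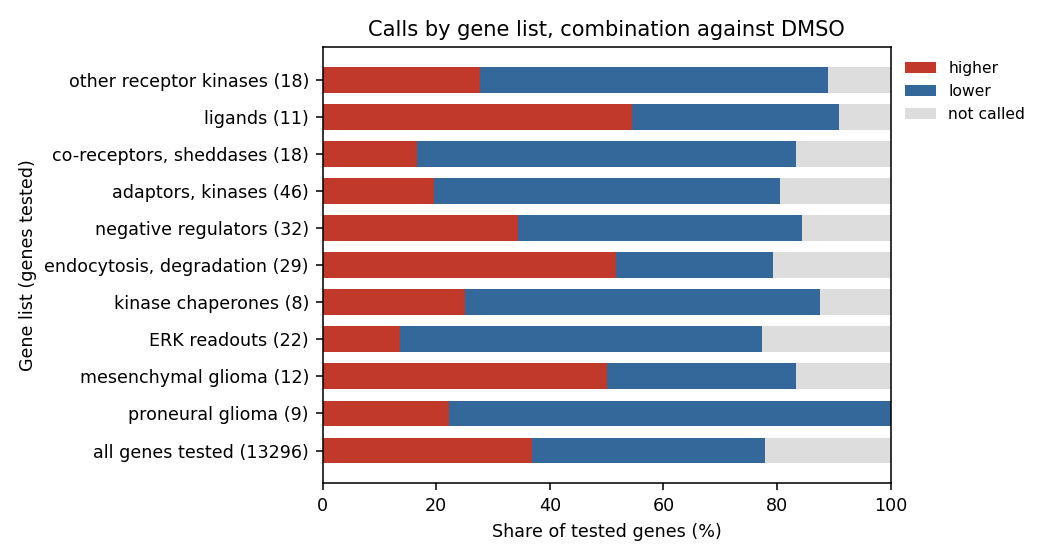
Share of tested genes (%) called higher (red), lower (blue) or not called (grey) after the combination in each gene list, with the number tested in brackets and all 13296 genes at the bottom. Of the ERK readouts 14 of 22 were lower, and of the genes for receptor uptake and degradation 15 of 29 were higher. Across all genes tested 41.0% were lower and 36.9% higher.

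A mesenchymal and a progenitor state of glioma are often told apart by marker genes, with AXL and MET on the mesenchymal and PDGFRA and ERBB3 on the progenitor side. Of 12 tested genes of the mesenchymal list 6 were higher and 4 lower (median log2 fold change 0.14). For this list and the progenitor list, the shares among all genes tested were 36.9% higher and 41.0% lower. The caveolin gene CAV1 was higher at 79.3 ± 1.29 FPKM after the combination against 52.3 ± 3.45 FPKM in DMSO, as was the collagen gene COL1A1 at 3.47 ± 0.225 FPKM after the combination against 0.735 ± 0.0443 FPKM in DMSO. The cytokine LIF (combination 12.3 ± 0.786, DMSO 78.5 ± 4.52 FPKM), VIM (combination 116 ± 5.65, DMSO 315 ± 18.1 FPKM) and TGFBI (combination 35.0 ± 0.923, DMSO 61.5 ± 1.45 FPKM) were lower. COL1A1 passed the filter through the combination libraries alone. Of 9 tested genes of the progenitor list 7 were lower and 2 higher (median log2 fold change -2.24). S100B stood at 17.8 ± 0.823 FPKM after the combination against 257 ± 6.59 FPKM in DMSO, SOX10, a factor known to activate ERBB3 in neural crest and glia, at 35.2 ± 0.837 FPKM after the combination against 301 ± 14.9 FPKM in DMSO, and CSPG4 at 5.16 ± 0.314 FPKM after the combination against 61.0 ± 4.27 FPKM in DMSO. OLIG2 (combination 3.50 ± 0.566, DMSO 2.34 ± 0.300 FPKM) and BCAN (combination 2.44 ± 0.384, DMSO 0.354 ± 0.0334 FPKM) were higher. BCAN passed the filter through the combination libraries alone. With a filter of 5 FPKM 0 were higher and 6 lower of 6, and without a filter 4 were higher and 8 lower of 14.

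Profiles closest to each tested receptor were found by the root-mean-square difference of log2(FPKM + 1) over the 8 libraries, after centring each gene on its DMSO mean. Since all 8 libraries fall into 2 groups, closeness mainly reflects a like change between groups. WFS1 (0.0538) and FBXO32 (0.0561) were nearest to MET, PCDHGC3 (0.0479) and CIT (0.0589) to ERBB3, EPHB3 (0.0541) and NID1 (0.0600) to ERBB2, and NES (0.0308) and CIITA (0.0336) to AXL. EGFR was nearest to KMT2A (0.0316) and USP8 (0.0322), FGFR1 to SSR3 (0.0188) and UBXN4 (0.0203), TYRO3 to C20orf194 (0.0225) and NAB2 (0.0266), and PDGFRB to NXT2 (0.0386) and RMND5A (0.0394). The values in brackets are these differences in log2 units.

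The libraries held 15189251 to 17324292 reads in genes, with correlations of log2 values of at least 0.986 within and at most 0.823 between groups. Genes with a read numbered 27742 to 29035 per combination library and 25046 to 25719 per DMSO library, which bears on sums of low genes. Mitochondrial genes took 11.7% to 15.1% of reads after the combination and 4.31% to 6.69% in DMSO. With scaling by the reads of nuclear genes, the receptor calls stood as given except that of FGFR1. The glioblastoma line markers summed to 331 to 349 FPKM after the combination and 754 to 783 FPKM in DMSO (1 higher and 3 lower of 5 tested, with SOX9 below the filter). For this and the other marker lists, the shares among all genes tested were 36.9% higher and 41.0% lower. Other marker lists were compared by their summed FPKM. Microglia and blood genes summed to 0.874 to 1.73 FPKM after the combination and 0.265 to 0.607 FPKM in DMSO (7 genes, AIF1 without a read), and endothelial genes to 1.16 to 1.65 FPKM after the combination and 0.343 to 0.535 FPKM in DMSO (6 genes), with none tested. Neuron genes reached 25.0 to 26.6 FPKM after the combination and 14.5 to 15.4 FPKM in DMSO (3 higher and 2 lower of 5 tested). Astrocyte genes reached 23.1 to 24.2 FPKM after the combination and 7.54 to 8.18 FPKM in DMSO (1 of 1 higher, with GFAP and AQP4 below 1 FPKM). Oligodendrocyte genes reached 2.56 to 3.17 FPKM after the combination and 36.0 to 42.6 FPKM in DMSO (2 of 2 lower), and epithelial genes 27.9 to 31.9 FPKM after the combination and 14.8 to 15.9 FPKM in DMSO (3 of 3 higher). Among those tested, 2 neuron genes and 1 epithelial gene averaged 1 FPKM or more in 1 group alone and passed the filter through it. The part of these differences in the receptor results was not tested.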

How the data were processed

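FPKM for 58735 genes in all 8 samples are in a single table deposited by the authors. Bowtie 0.12.2 and, as builds, GRCh37 and mm8 appear in the submitters' processing notes with no role stated, and no source used here names the counting program. All 58735 identifiers, coordinates and merged exon lengths equal those of GENCODE 29 on GRCh38, which is therefore the build of the coordinates printed.

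Reads were recovered from the values, since FPKM multiplied by gene length came in whole steps for each sample (tolerance 0.02, 100% of values above 0). The test was limma 3.58.1 in R 4.3.3 on log2(FPKM + 1), with no covariate beside group and with the trend option of its variance moderation, for 13296 genes averaging 1 FPKM or more. Calls are at a Benjamini-Hochberg adjusted p under 0.05. Single values were compared with the exact permutation test of scipy 1.17.1, two-sided. The limma and voom fits were first tested on simulated data in which few genes changed, equally often up and down. That test cannot speak to scaling where most genes tested are called, as here. The members, the 10 gene lists and the 7 marker lists were chosen with earlier results of these data known. Genes named from a list are up to 3 called ones of smallest p each way, plus ligands set beside their receptors, and each tested receptor has its 2 nearest profiles named. Counts of a list say nothing particular to it, and 1 gene that this rule names is not reported here.

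Promoter windows were given by RefSeq for 8 of 10 members. Alternatives were other scalings, filters and pseudocounts, voom, a block for the replicate number, and fits without each sample in turn. Scaling by nuclear reads was chosen after seeing the data. Figures were drawn with matplotlib 3.10.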

Additional observations from a re-analysis of the deposited data

Results flagged for a closer look

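In 170 groups of 4 libraries checked (members, pair ratios and named genes), 7 held a library far from the other 3, and chance gives about 1 in 20. Among receptors this was the log2 ratio of PDGFRB to PDGFRA, which was -0.047 in DMSO library 1 and 0.19 to 0.23 in the other DMSO libraries. CDC37 stood at 62.0 FPKM in DMSO library 4, against 57.7 to 58.2 FPKM in the others. Combination library 4 was high for DUSP5 (49.1 FPKM, others 44.5 to 45.2) and PIK3CD (13.2 FPKM, others 12.5 to 12.6) and low for VIM (108 FPKM, others 118 to 120). EPHB2 had 1.77 FPKM in DMSO library 4, with 1.88 to 1.90 FPKM in the others. PTPRJ had 2.62 FPKM in combination library 3, with 2.91 to 2.97 FPKM in the others.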

How the results depend on the processing

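MET, ERBB2, ERBB3, AXL, TYRO3 and PDGFRB kept their direction and stayed called under every alternative in which they were tested. Their log2 fold changes ranged from 1.84 to 2.21 for MET, from -2.91 to -1.50 for ERBB2, from -3.22 to -2.34 for ERBB3, from -1.75 to -1.52 for AXL, from -0.59 to -0.24 for TYRO3 and from 0.18 to 0.71 for PDGFRB. EGFR and FGFR1 depended on the scaling. EGFR ranged from -0.20 (voom) to 0.018 with quantile normalization, where its sign turned, and FGFR1 from -0.23 to -0.01. The cause was not tested. Members called lower numbered 4 to 6, and members called higher 2 throughout, apart from 3 of 10 without a filter and 1 of 5 with a filter of 5 FPKM. Over all genes 7747 were higher without a filter, and with a filter of 5 FPKM 2821 were higher and 3277 lower, from 38736 and 7258 genes tested. With upper-quartile factors 5549 were higher and 4886 lower. Leaving out 1 library gave 4640 to 4875 higher and 5255 to 5408 lower genes. All 60 alternative values of the pair ratios kept their direction, though sizes moved with the pseudocount (PDGFRB relative to PDGFRA from 0.37 to 2.38, ERBB2 relative to EGFR from -2.66 to -1.44), and with 1 library left out the exact test cannot go below 0.0571. Among list counts 10 values moved by over 1.5 times and 370 did not. Same-numbered samples did not deviate together (correlations of -0.02 to 0.07), and the replicate block left 2 members higher and 5 lower, with 4839 and 5404 of all genes. ERBB4 and PDGFRA rest on few reads.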
